A study of Homo sapiens with 12 samples.

Results

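The 44 collagen chain genes in a table of 28395 genes, every row whose symbol has the form COL, number, A, number, were followed across 12 RNA sequencing libraries of KG1a cells. KG1a is an established human acute myeloid leukaemia line with an immature, CD34-positive phenotype. The wild-type line was grown in RPMI medium with 20% serum, and CD34-positive cells were separated into a bright subset, high for the surface proteins CD38 and CLL-1, and a dim subset, low for both. The 4 groups of 3 libraries were hypoxic bright, hypoxic dim, normoxic bright and normoxic dim, hypoxia being 3% oxygen, and they were used to ask how oxygen and the subset bear on expression. The labels do not say whether replicates were separate cultures, so each p-value rests on the spread among these libraries, which may be technical. In bulk RNA of this kind, fewer cells of a type and less RNA per cell cannot be told apart.

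Collagens are secreted or membrane-bound proteins whose chains wind into triple helices of 3 chains, each helix built from 1 chain gene or from several. Fibrillar collagens form the cross-banded fibres of connective tissue, type IV collagens form the sheet of basement membranes, type VI collagens form beaded filaments, and fibril-associated collagens sit on the surface of fibres. Fibroblasts, muscle, cartilage, endothelium and epithelia are their best known sources, while blood cells are better known for binding collagen than for making it.

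Values are normalized read counts, rounded to whole numbers by the authors. They summed to between 31828256 and 32560463 per library, and 1 read was worth between 0.815 and 1.27 of these units, for an estimated depth of 25200000 to 39500000 counted reads. All 8 progenitor markers of the line, CD34, PTPRC, RUNX1 and GATA2 among them, were at 10 or more in every library. Several libraries stood apart in markers of other cell types. Summed skeletal muscle markers were highest in normoxic dim replicate 1, at 6531, and normoxic bright replicate 1, at 4537, against 333 to 2473 elsewhere. Summed airway epithelium markers were highest in hypoxic dim replicate 2, at 17842, and normoxic bright replicate 2, at 7031, and neutrophil granule markers in hypoxic dim replicate 1, at 15138. Not all 6 granule markers were high there. ELANE, PRTN3, AZU1 and MPO were at 1526 to 7043 in that library, but CTSG was at 15, against 7 to 32 elsewhere, and DEFA4 at 0 in every library. The 12 fibroblast markers summed to 1487 to 3069, highest in normoxic dim replicate 1. Most of that sum came from TWIST1, at 921 to 1319, and FBN1, at 279 to 848, in every library, while PDGFRA was at 60 to 180 and DPT was listed at 0 throughout. Where leaving out a pair of these libraries changed a call of a collagen gene, the value without it is given.

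None of the 44 genes was at 0 in every library, but 7 stayed under 10 in every library and are called silent. They were COL2A1, COL6A6, COL9A1, COL10A1, COL20A1, COL22A1 and COL26A1, and the highest value of COL9A1 in any library was 1. A further 7 reached 10 in only 1 or 2 libraries: COL8A2, COL9A3, COL13A1, COL14A1, COL17A1, COL19A1 and COL25A1. COL9A3 shares 146 exon bases with TCFL5 on the other strand, a gene at 1036 to 1354 in these libraries, and the strand used in counting is not given, so its few reads cannot be assigned with certainty. The other 30 genes reached 10 in at least 3 libraries and entered the tests. Expression was therefore spread unevenly over the classes: 10 of 11 fibrillar chains and all 6 basement membrane chains were tested, but only 4 of 10 fibril-associated and 1 of 4 transmembrane chains were.

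Per kilobase of annotated exon, the highest mean level over the 12 libraries was that of COL23A1, a transmembrane collagen, at 392 units per kilobase. COL3A1 followed at 262, COL18A1 at 108, COL1A2 at 105, COL24A1 at 95.6, COL11A2 at 79.8 and COL7A1 at 78.0. All collagen chain genes together held 0.0175% to 0.0543% of the normalized total, and the highest share was in normoxic dim replicate 1.

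**Figure D1:**
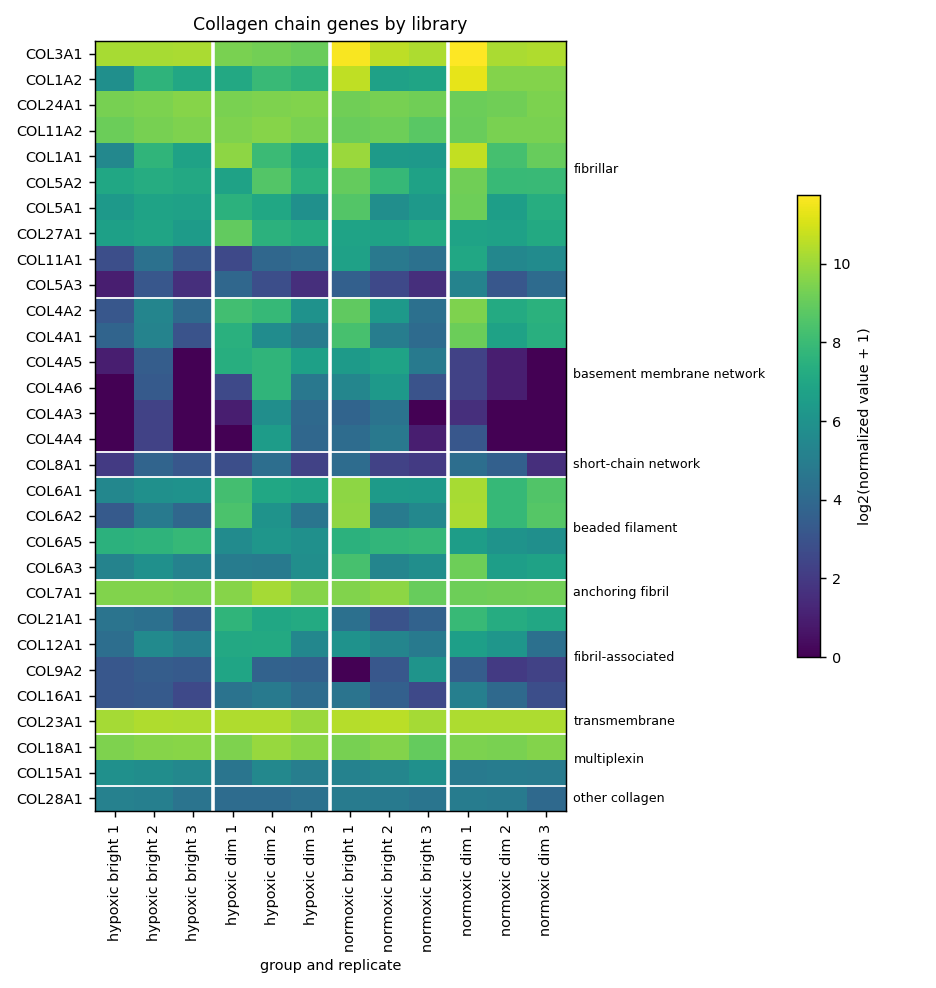
Log2 of the normalized value plus 1 (colour) of the 30 tested collagen chain genes (rows, by class) in the 12 libraries (columns, 3 per group). COL23A1, COL18A1, COL24A1, COL11A2 and COL7A1 keep a nearly even colour, while COL1A1, COL1A2, COL4A1, COL4A2, COL6A1 and COL6A2 are brightest in normoxic dim replicate 1.

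Of the 30 collagen chain genes tested, 6 passed in at least 1 comparison: COL4A2, COL4A5, COL4A6, COL6A5, COL21A1 and COL27A1 (limma on log2(value + 1), Benjamini-Hochberg adjusted p under 0.05 over all 15057 genes tested, 2-sided). In hypoxia, 6 of the 30 passed between bright and dim cells, against 26.5% of all tested genes, with 1 higher in bright cells (12.9% of all tested genes) and 5 lower (13.6%). In normoxia, 3 of the 30 passed, against 6.66% of all tested genes, with 2 higher in bright cells (2.88%) and 1 lower (3.79%). These shares lie near those of all genes and are no result about collagen genes as a set. Hypoxia against normoxia gave 1 of 30 in bright cells, against 0.837% of all genes, where 0 were higher (0.478% of all genes) and 1 was lower (0.359%). It also gave 1 of 30 in dim cells, against 0.232%, where 1 was higher (0.199%) and 0 were lower (0.0332%). In each case the gene was COL4A5, and the difference between both oxygen effects passed for COL4A5 and COL4A6, both negative, against 2.36% of all genes (1.1% positive, 1.26% negative). At an unadjusted p under 0.05 the counts were 10 for the subset in hypoxia (39.5% of all tested genes) and 6 in normoxia (18.8%), 7 for oxygen in bright cells (15.5%) and 10 in dim cells (17.4%), and 5 for the difference (22% of all tested genes). Single libraries moved these counts: 3 genes passed for the subset in hypoxia without hypoxic bright replicate 3, and 8 in normoxia without normoxic bright replicate 1. The share of all tested genes that passed in such refits was not counted, so these moves are not read as a result about collagen genes.

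The median log2 fold change of the 30 genes between bright and dim cells was -0.77 in hypoxia and -0.30 in normoxia, while that of all tested genes was -0.03 in hypoxia and -0.01 in normoxia. For hypoxia against normoxia the median was -0.57 in bright and -0.09 in dim cells, and that of all tested genes was 0.00 in both after rounding. Groups that did not overlap in any library numbered 11 of 30 collagen genes for the subset in hypoxia (41.1% of all tested genes) and 5 in normoxia (23.7%). For oxygen they numbered 4 in bright cells (22.3%) and 9 in dim cells (17.5%).

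**Figure D2:**
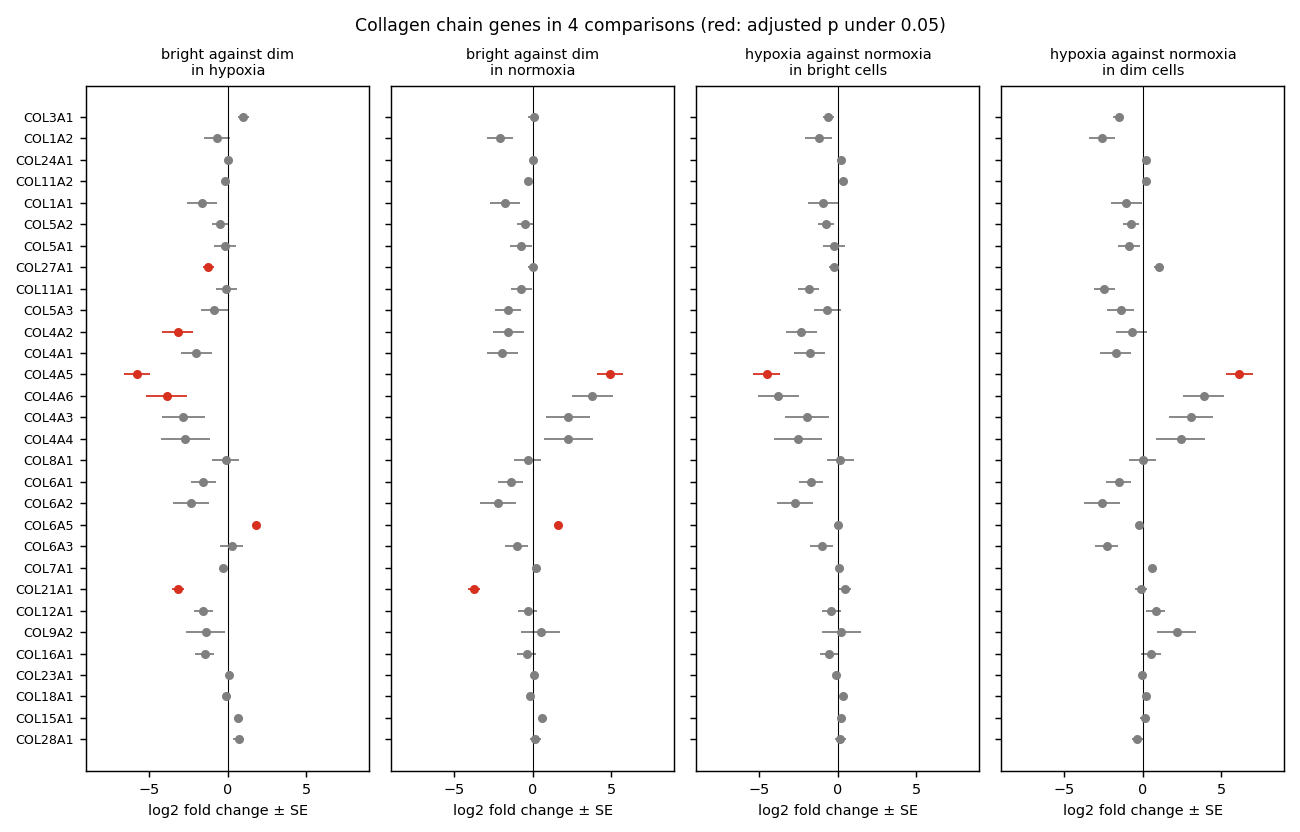
Log2 fold change with its standard error (horizontal axis) of each tested collagen chain gene (rows, by class) for bright against dim cells in hypoxia and in normoxia, and for hypoxia against normoxia in bright and in dim cells. Red points passed at an adjusted p under 0.05. COL21A1 lies far to the left and COL6A5 to the right in both subset panels, while COL4A5 changes side between hypoxia and normoxia.

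Among the fibrillar chains, COL27A1 was the single one that passed in a comparison. It encodes a fibrillar collagen best known from developing cartilage. Its value was 102, 116 and 87 in the 3 hypoxic bright libraries, against 485, 185 and 151 in the hypoxic dim libraries, and 113, 107 and 141 in normoxic bright, against 111, 104 and 141 in normoxic dim libraries. Hypoxic bright and hypoxic dim libraries did not overlap, and 1 hypoxic dim library was far above the rest. COL27A1 was 2.35-fold lower in bright than in dim cells in hypoxia (log2 fold change -1.23 ± 0.33, standard error, adjusted p = 0.0160). The library at 485, hypoxic dim replicate 1, is also the one with 15138 of neutrophil granule markers, a sum to which CTSG and DEFA4 added only 15 and 0. Without it and the second library of that pair the difference was -0.72 (adjusted p = 0.0190), and without hypoxic bright replicate 3 it no longer passed (-1.13, adjusted p = 0.0574). Its hypoxia effect in dim cells, 1.01 ± 0.33, did not pass (adjusted p = 0.167), but did so without hypoxic dim replicate 3 (1.34, adjusted p = 0.0399), as did the difference of the oxygen effects (-1.58, adjusted p = 0.0392).

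COL1A1 and COL1A2 encode the chains of type I collagen, the main fibre of bone, skin and tendon. COL1A1 stood at 44, 205 and 107 in hypoxic bright and 869, 258 and 135 in hypoxic dim libraries, and at 1005, 84 and 77 in normoxic bright and 1644, 310 and 520 in normoxic dim libraries. COL1A2 stood at 56, 201 and 131 in hypoxic bright and 135, 246 and 191 in hypoxic dim libraries, and at 1596, 104 and 115 in normoxic bright and 2538, 755 and 758 in normoxic dim libraries. In normoxic bright cells the first replicate of each gene was more than 10 times the other two, so replicates of 1 group differed more than the groups did. No test of either gene passed; the largest estimate was -2.61 ± 0.85 for COL1A2, hypoxia against normoxia in dim cells (adjusted p = 0.165). Without normoxic bright replicate 1, COL1A1 (-2.98, adjusted p = 0.0355) and COL1A2 (-3.36, adjusted p = 0.00174) passed as lower in bright cells in normoxia, and COL1A2 as lower in hypoxia in dim cells (at an unchanged -2.61, adjusted p = 0.0270). Per kilobase, COL1A1 was at 0.374 to 0.956 times COL1A2 in 11 libraries, but at 5.87 times in hypoxic dim replicate 1.

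COL3A1, which makes the homotrimer of type III collagen in vessels and soft organs, was the most abundant collagen chain transcript after COL23A1 per kilobase. Its value was 1184, 1177 and 1237 in hypoxic bright and 665, 614 and 533 in hypoxic dim libraries, and 3180, 1507 and 1256 in normoxic bright and 3431, 1209 and 1281 in normoxic dim libraries. The hypoxic dim libraries were the lowest of the 12 and overlapped with no other group. The tests did not pass, at 0.99 ± 0.36 for bright against dim in hypoxia (adjusted p = 0.0568) and -1.54 ± 0.36 for hypoxia against normoxia in dim cells (adjusted p = 0.0931). Without the 2 libraries highest in skeletal muscle markers, both passed (0.99, adjusted p = 7.45e-05, and -1.05, adjusted p = 0.00678), as did the difference of the oxygen effects (0.85, adjusted p = 0.0151). Both libraries are normoxic, so the subset estimate in hypoxia did not move. Its standard error, from the spread shared by all groups, fell from 0.36 to 0.10. At the same estimate, the subset difference also passed without normoxic dim replicate 1 (adjusted p = 0.0133), normoxic bright replicate 1 (0.0212) or normoxic bright replicate 3 (0.0486) alone. The oxygen effect in dim cells, also at the same estimate, passed without normoxic bright replicate 1 (0.0289).

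Type V chains, which regulate the diameter of type I fibres, showed wide replicates as well. COL5A1 was at 82, 113 and 106 in hypoxic bright, 186, 127 and 58 in hypoxic dim, 387, 55 and 77 in normoxic bright and 562, 94 and 159 in normoxic dim libraries, and COL5A2 ranged from 107 to 582. COL5A3 ranged from 1 to 37, and COL11A1, a type XI chain, from 5 to 126, with no test passed by any of these 4 genes. COL24A1 and COL11A2 were the opposite case. COL24A1 was at 641, 678 and 788 in hypoxic bright, 665, 709 and 744 in hypoxic dim, 578, 655 and 582 in normoxic bright and 543, 580 and 698 in normoxic dim libraries. Its difference between bright and dim cells was -0.01 (95% interval -0.26 to 0.23) in hypoxia and 0.00 (-0.24 to 0.25) in normoxia. COL11A2 ranged from 433 to 776 and passed in no comparison.

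Type IV collagen has 6 chain genes arranged as 3 head-to-head pairs, COL4A1 with COL4A2, COL4A4 with COL4A3 and COL4A6 with COL4A5, each pair transcribed away from a short shared stretch. By the exon intervals of the deposited table, 126 bases lie between the start sites of COL4A1 and COL4A2 on chromosome 13, 5 between those of COL4A4 and COL4A3 on chromosome 2, and 238 between those of COL4A6 and COL4A5 on the X chromosome. The α1 and α2 chains make the network found in nearly all basement membranes, while α3, α4, α5 and α6 are found in specialised ones, such as those of kidney, lung and skin. The promoter windows of both pairs whose genes passed are printed here from RefSeq on GRCh38.p14, 250 bases before to 50 after the start site, 5′ to 3′ on each gene's own strand. Capitals mark the bases that both windows of a pair share, which read as reverse complements of each other: 226 bases for COL4A1, on the minus strand at chr13:110307108-110307407, and COL4A2, on the plus strand at chr13:110307034-110307333.
COL4A1: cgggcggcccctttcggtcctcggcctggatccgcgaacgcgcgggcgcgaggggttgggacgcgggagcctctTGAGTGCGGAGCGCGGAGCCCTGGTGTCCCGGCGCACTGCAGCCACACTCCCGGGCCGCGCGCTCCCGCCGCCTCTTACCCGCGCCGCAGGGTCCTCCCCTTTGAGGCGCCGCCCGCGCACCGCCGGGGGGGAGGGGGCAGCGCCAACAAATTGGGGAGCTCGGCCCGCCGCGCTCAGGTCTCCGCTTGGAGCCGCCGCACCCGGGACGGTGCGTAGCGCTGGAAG
COL4A2: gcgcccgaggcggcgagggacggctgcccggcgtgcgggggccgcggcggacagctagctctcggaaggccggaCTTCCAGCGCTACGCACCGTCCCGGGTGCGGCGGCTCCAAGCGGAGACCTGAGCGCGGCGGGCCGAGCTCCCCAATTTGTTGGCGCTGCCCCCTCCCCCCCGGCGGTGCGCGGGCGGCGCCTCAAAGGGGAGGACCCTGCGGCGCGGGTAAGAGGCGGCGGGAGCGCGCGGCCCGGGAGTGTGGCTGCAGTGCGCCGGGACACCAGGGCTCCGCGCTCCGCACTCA
For COL4A5, on the plus strand at chrX:108439588-108439887, and COL4A6, on the minus strand at chrX:108439409-108439708 (1 of 2 listed windows of the gene), 121 bases are shared. The RefSeq start sites of these 2 windows are not those of the exon intervals, 108439736 and 108439497, so the 238 bases given above do not apply to them.
COL4A5: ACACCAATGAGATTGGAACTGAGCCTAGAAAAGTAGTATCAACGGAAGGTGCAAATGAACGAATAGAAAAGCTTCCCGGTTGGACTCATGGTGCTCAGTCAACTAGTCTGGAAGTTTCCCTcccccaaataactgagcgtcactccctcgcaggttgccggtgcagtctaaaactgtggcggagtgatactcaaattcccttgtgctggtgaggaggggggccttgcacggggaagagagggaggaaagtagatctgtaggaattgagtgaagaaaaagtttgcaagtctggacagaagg
COL4A6: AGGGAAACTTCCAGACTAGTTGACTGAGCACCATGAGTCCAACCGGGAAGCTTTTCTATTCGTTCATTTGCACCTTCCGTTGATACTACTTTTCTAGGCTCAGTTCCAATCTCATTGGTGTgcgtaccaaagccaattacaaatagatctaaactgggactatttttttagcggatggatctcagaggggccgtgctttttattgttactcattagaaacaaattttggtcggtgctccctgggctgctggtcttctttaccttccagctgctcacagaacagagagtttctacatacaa

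The COL4A1 and COL4A2 windows hold 76.7% and 77.7% G and C, and those of COL4A5 and COL4A6 hold 49.3% and 43.7%, the mean of all windows being 57.5%. Each window was searched on both strands for 5 short motifs. The core of the hypoxia response element, searched as ACGTG, is in 21.4% of the 35116 promoter windows of the same length and was not found in these 4. Its other form, GCGTG, is in 36.5% of all windows and was found once, for COL4A2. The CCAAT box is in 34.6% of all windows and was found once in each window of the first pair, 2 times in that of COL4A5 and 3 times in that of COL4A6. A TATA box, searched as TATAAA, is in 11.5% and a GATA factor motif, searched as AGATAA, in 10.3% of all windows, and neither was found in these 4. These are letter matches, not sites.

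COL4A5 had the widest changes of all collagen chain genes, and the sign of its subset difference turned with oxygen. Its value was 1, 10 and 0 in hypoxic bright libraries, against 164, 205 and 102 in hypoxic dim libraries, and 84, 110 and 28 in normoxic bright libraries, against 4, 1 and 0 in normoxic dim libraries. The groups did not overlap within either oxygen level, and hypoxic bright and normoxic dim were both at 10 or below. COL4A5 thus entered the tests through the groups where it is high, and its subset calls held without the filter on low values. COL4A5 was 54.2-fold lower in bright than in dim cells in hypoxia (log2 fold change -5.76 ± 0.84, adjusted p = 0.000522). In normoxia it was 30.1-fold higher in bright than in dim cells (4.91 ± 0.84, adjusted p = 0.00268). By oxygen, it was lower in hypoxia in bright cells (-4.53 ± 0.84, adjusted p = 0.0288) and higher in hypoxia in dim cells (6.14 ± 0.84, adjusted p = 0.0155), and the difference of both effects was -10.67 ± 1.18 (adjusted p = 0.00123). Its oxygen effect in bright cells no longer passed without normoxic bright replicate 1 (adjusted p = 0.0735) or 2 (0.109) or hypoxic bright replicate 1 (0.169) or 3 (0.0609), nor that in dim cells without normoxic dim replicate 2 (0.124) or 3 (0.0809) or hypoxic dim replicate 2 (0.136). The low groups lie near 0, so these folds depend on the pseudocount. With 0.1 and with 10 in place of 1 the subset difference was -7.19 and -3.63 in hypoxia and 6.38 and 2.71 in normoxia.

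COL4A6 kept a like order with more scatter. It was at 0, 9 and 0 in hypoxic bright and 5, 203 and 25 in hypoxic dim libraries, and at 41, 78 and 7 in normoxic bright and 4, 1 and 0 in normoxic dim libraries. A hypoxic bright library lay above a hypoxic dim one, so those groups overlapped. COL4A6 was lower in bright than in dim cells in hypoxia (-3.88 ± 1.30, adjusted p = 0.0415), and the difference of the oxygen effects passed at -7.67 ± 1.83 (adjusted p = 0.0470). It reached 10 in only 4 libraries, all hypoxic dim or normoxic bright, so it entered the tests through the groups where it is high. Neither call held without the filter on low values. In normoxia the subset estimate was 3.79 ± 1.30 and did not pass (adjusted p = 0.115), but did so without both libraries highest in granule markers (4.74, adjusted p = 0.0234). Those libraries, at 5 and 7, were the lowest of the hypoxic dim and normoxic bright groups for COL4A6, so no conclusion is drawn from that pass. The call in hypoxia was lost without normoxic dim replicate 2 (-3.88, adjusted p = 0.0523), hypoxic dim replicate 2 (-2.54, 0.189) or 3 (-4.02, 0.0628), or hypoxic bright replicate 1 (-3.32, 0.140) or 3 (-3.32, 0.128). The difference was lost without normoxic dim replicate 2 (adjusted p = 0.123) or 3 (0.110), normoxic bright replicate 1 (0.0533) or 2 (0.118), hypoxic dim replicate 2 (0.116), or hypoxic bright replicate 1 (0.130) or 3 (0.0767).

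COL4A3 and COL4A4, the remaining pair, gave estimates of the same signs at lower values. COL4A3 was at 0, 4 and 0 in hypoxic bright, 1, 54 and 15 in hypoxic dim, 13, 21 and 0 in normoxic bright and 2, 0 and 0 in normoxic dim libraries. COL4A4 was at 0, 4 and 0 in hypoxic bright, 0, 89 and 14 in hypoxic dim, 17, 26 and 1 in normoxic bright and 8, 0 and 0 in normoxic dim libraries. All 4 genes of both pairs were highest in hypoxic dim replicate 2, and neither COL4A3 nor COL4A4 passed in any comparison. COL4A3 and COL4A4 each reached 10 in only 4 libraries, all hypoxic dim or normoxic bright, so they too entered the tests through those groups. Without hypoxic dim replicate 1, where they stood at 1 and 0, both passed as lower in bright cells in hypoxia (-4.12, adjusted p = 0.0363, and -4.43, adjusted p = 0.0295). Without that library and normoxic bright replicate 3, the pair highest in granule markers, COL4A3 passed for the subset in hypoxia (-4.12, adjusted p = 0.00915) and in normoxia (3.61, adjusted p = 0.0427) and for the difference of the oxygen effects (-7.72, adjusted p = 0.00930). COL4A4 then passed for the subset in hypoxia (-4.43, adjusted p = 0.0141) and for that difference (-7.83, adjusted p = 0.0210). In the 2 libraries left out, COL4A3 was at 1 and 0 and COL4A4 at 0 and 1, the lowest values of their groups. Leaving out the lowest libraries of the groups where a gene is high widens the contrast, so no conclusion is drawn from these passes. The difference of the oxygen effects was -5.05 ± 1.97 for COL4A3 (adjusted p = 0.159) and -4.94 ± 2.20 for COL4A4 (adjusted p = 0.210).

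The summed values of 12 airway epithelium markers moved with COL4A5 and COL4A6. They were 317, 1163 and 75 in hypoxic bright and 1102, 17842 and 5736 in hypoxic dim libraries, and 3426, 7031 and 276 in normoxic bright and 271, 201 and 223 in normoxic dim libraries. For both genes and for the markers, the median was highest in hypoxic dim or normoxic bright libraries and lowest in the other 2 groups. At least 10 in some library of the group was reached by 9 of the 12 markers in hypoxic bright, 11 in hypoxic dim, 10 in normoxic bright and 4 in normoxic dim libraries. Without the 2 libraries highest in these markers, hypoxic dim replicate 2 and normoxic bright replicate 2, COL4A5 passed for the subset in hypoxia (-5.54, adjusted p = 0.00676) and in normoxia (4.53, adjusted p = 0.0324). The difference of its oxygen effects was then -10.07 (adjusted p = 0.0539), its oxygen effects did not pass (adjusted p = 0.151 in bright and 0.178 in dim cells), and neither test of COL4A6 passed (-2.54, adjusted p = 0.205, for the subset in hypoxia, and -5.62, adjusted p = 0.242, for the difference). In hypoxic dim replicate 1, with 1102 of airway markers, COL4A5 was at 164 and COL4A6 at 5, while in hypoxic bright replicate 2, with 1163, they were at 10 and 9. The markers themselves differed in order. EPCAM was highest in hypoxic dim replicate 1, at 137, against 75 in hypoxic dim replicate 2, while KRT8 was at 169 against 4162. With hypoxic dim replicate 2 and normoxic bright replicate 2 left out, hypoxic dim replicate 3 was still at 5736 and normoxic bright replicate 1 at 3426, so part of the marker contrast between groups remained. Leaving out the 2 libraries highest in these markers therefore cannot separate COL4A5 from the markers. The part of airway epithelium cells in these values was not tested.

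**Figure D3:**
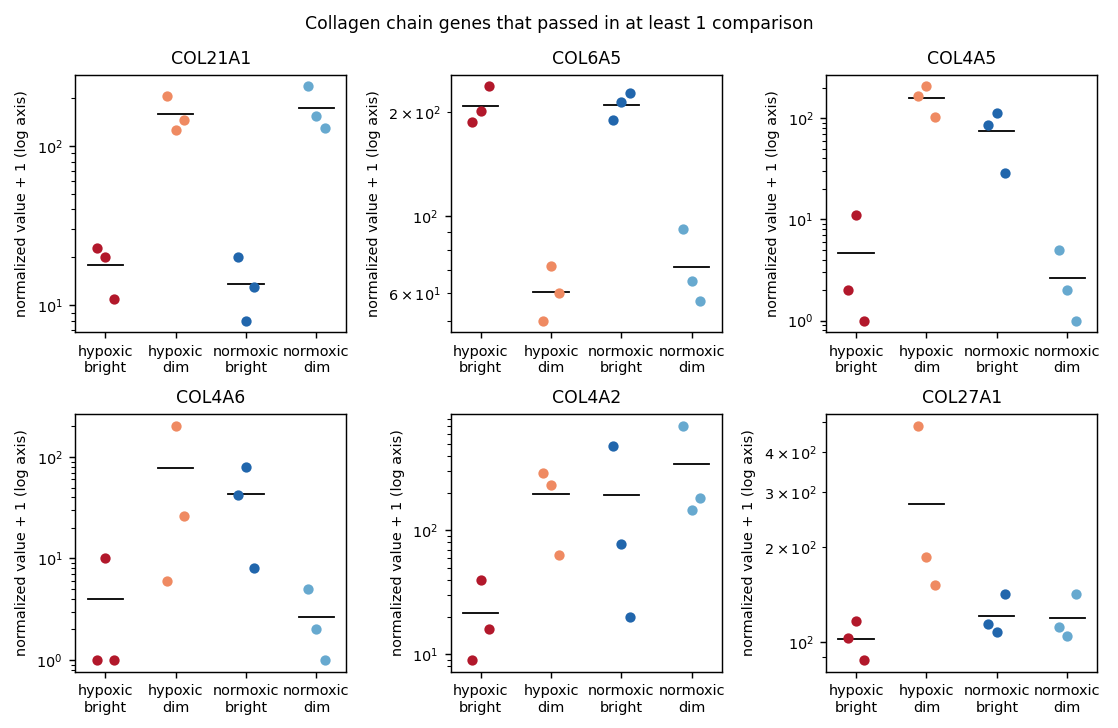
Normalized value plus 1 (vertical log axis) of the 6 collagen chain genes that passed in at least 1 comparison, by group. Points are libraries and lines are group means, n = 3 in each group. COL21A1 and COL6A5 separate bright from dim cells at both oxygen levels, and COL4A5 is at 10 or below in the hypoxic bright and normoxic dim libraries.

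COL4A1 and COL4A2 followed another order than the other pairs. COL4A2 was at 8, 39 and 15 in hypoxic bright, against 288, 232 and 62 in hypoxic dim libraries, and at 475, 77 and 19 in normoxic bright, against 701, 144 and 182 in normoxic dim libraries. It was 9.03-fold lower in bright than in dim cells in hypoxia (-3.17 ± 0.98, adjusted p = 0.0300), where the groups did not overlap, and the estimate in normoxia was -1.55 ± 0.98 (adjusted p = 0.446). COL4A1 was at 13, 37 and 7 in hypoxic bright, 175, 51 and 29 in hypoxic dim, 323, 31 and 16 in normoxic bright and 543, 107 and 171 in normoxic dim libraries, and passed in no comparison. Its log2 fold change for the subset in hypoxia had a 95% interval of -4.14 to 0.13 (adjusted p = 0.150), and without normoxic bright replicate 1 it passed as lower in bright cells in normoxia (-3.21, adjusted p = 0.0295). The call for COL4A2 was lost on leaving out hypoxic dim replicate 1 (adjusted p = 0.0728), hypoxic dim replicate 2 (0.0965), hypoxic bright replicate 1 (0.119) or hypoxic bright replicate 3 (0.0783), with estimates of -2.76, -2.91, -2.68 and -3.09 in that order. It was also lost without both libraries highest in airway markers (-2.91, adjusted p = 0.120). COL4A1 passed as lower in bright cells in hypoxia without both libraries highest in muscle markers (adjusted p = 0.0403). The ratio of COL4A2 to COL4A1 per kilobase ranged from 1.53 to 11.3 over the 12 libraries. It depends on the annotated exon lengths, 15600 bases for COL4A1 and 6264 for COL4A2. Without division by length, the means over the 12 libraries were 125 for COL4A1 and 187 for COL4A2.

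Of the short-chain network collagens, which form hexagonal lattices, only COL8A1 was tested, at 2 to 18, and it passed in no comparison.

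Type VI collagen is built from an α1 chain, an α2 chain and 1 more, for which α5, the product of COL6A5, can stand in for α3. COL6A5 was the member that set bright cells above dim cells at both oxygen levels. Its value was 186, 200 and 236 in hypoxic bright, against 49, 71 and 59 in hypoxic dim libraries, and 188, 212 and 225 in normoxic bright, against 91, 64 and 56 in normoxic dim libraries. Every bright library was above every dim one. COL6A5 was 3.45-fold higher in bright cells in hypoxia (1.79 ± 0.21, adjusted p = 0.000102) and 2.99-fold higher in normoxia (1.58 ± 0.21, adjusted p = 0.000342). Hypoxia against normoxia gave -0.01 (95% interval -0.45 to 0.43) in bright and -0.22 (-0.66 to 0.22) in dim cells, and the difference of these effects was 0.21 (-0.42 to 0.84), none of which passed. The subset call held in all 24 alternative settings at both oxygen levels, with log2 fold changes of 1.65 to 1.92 in hypoxia and 1.43 to 1.85 in normoxia.

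The other type VI chains did not share this order. COL6A1 was at 42, 59 and 62 in hypoxic bright and 302, 126 and 108 in hypoxic dim libraries, and at 849, 83 and 78 in normoxic bright and 1185, 233 and 377 in normoxic dim libraries. COL6A2 was at 9, 27 and 14 in hypoxic bright and 341, 64 and 23 in hypoxic dim libraries, and at 892, 29 and 44 in normoxic bright and 1216, 236 and 398 in normoxic dim libraries. Both were highest in normoxic dim replicate 1 and next in normoxic bright replicate 1, as was COL6A3, which ranged from 28 to 569. None of these 3 genes passed: the estimate for bright against dim in hypoxia was -1.56 ± 0.79 for COL6A1 (adjusted p = 0.156), -2.33 ± 1.15 for COL6A2 (adjusted p = 0.149) and 0.25 for COL6A3 (adjusted p = 0.828). Without normoxic bright replicate 1, COL6A1 and COL6A2 passed as lower in bright cells in hypoxia (adjusted p = 0.0305 and 0.0431) and in normoxia (-2.53, adjusted p = 0.0133, and -3.73, adjusted p = 0.0223). The estimates in hypoxia were unchanged by this, since that library is normoxic. Per kilobase, COL6A3 was at 0.0385 times COL6A2 in hypoxic dim replicate 1, the lowest ratio of the 12 libraries, and at 1.80 times in hypoxic bright replicate 1, the highest.

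COL7A1, the single chain of the anchoring fibrils that fasten epidermis to dermis, was at 732, 743 and 688 in hypoxic bright, 774, 1156 and 791 in hypoxic dim, 740, 855 and 513 in normoxic bright and 574, 592 and 610 in normoxic dim libraries. It was among the steady and abundant chains. Hypoxic dim libraries lay above normoxic dim libraries without overlap (0.59 ± 0.18), but the test did not pass (adjusted p = 0.146). Without both libraries highest in neutrophil granule markers, hypoxic dim replicate 1 and normoxic bright replicate 3, COL7A1 passed for oxygen in dim cells (0.69, adjusted p = 0.0377), for the subset in hypoxia (-0.41, adjusted p = 0.0446) and for the difference of the oxygen effects (-0.83, adjusted p = 0.0369). COL7A1 was lowest of its group in each of these 2 libraries, so no conclusion is drawn from these passes.

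Among the fibril-associated chains, COL21A1, which encodes a collagen best known from vessel walls, had the difference with the smallest adjusted p of all collagen genes in normoxia. Its promoter window, on the minus strand at chr6:56247531-56247830 of GRCh38.p14 and the first of 3 listed for the gene, is printed 5′ to 3′ with its single match to AGATAA, read here on the other strand as TTATCT, in capitals. AGATAA is in 10.3% of all windows and in 4 of 44 windows of collagen genes, and the other 4 motifs were not found in this window. The window lies inside the gene, whose exon intervals begin at 56394122 on this strand. Which start site these cells use was not tested, and the match is not read as part of the promoter in use.
COL21A1: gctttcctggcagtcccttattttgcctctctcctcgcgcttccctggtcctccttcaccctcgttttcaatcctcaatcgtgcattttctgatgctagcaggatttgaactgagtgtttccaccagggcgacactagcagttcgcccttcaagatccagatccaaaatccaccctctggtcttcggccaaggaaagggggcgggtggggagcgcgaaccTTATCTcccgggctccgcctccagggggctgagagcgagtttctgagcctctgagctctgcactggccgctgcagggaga
COL21A1 was at 22, 19 and 10 in hypoxic bright, against 206, 126 and 146 in hypoxic dim libraries, and at 19, 7 and 12 in normoxic bright, against 237, 154 and 129 in normoxic dim libraries. Every dim library was above every bright one. It was 9.14-fold lower in bright cells in hypoxia (-3.19 ± 0.38, adjusted p = 0.000139) and 13.2-fold lower in normoxia (-3.72 ± 0.38, adjusted p = 5.43e-05). Hypoxia against normoxia gave 0.43 (95% interval -0.40 to 1.25) in bright and -0.10 (-0.93 to 0.72) in dim cells, and the difference of these effects was 0.53 (-0.64 to 1.70), none of which passed. The subset call held in all 24 alternative settings, with log2 fold changes of -3.40 to -2.65 in hypoxia and -4.05 to -3.01 in normoxia.

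COL21A1 and COL6A5 passed with and without each pair of libraries that stood apart. COL21A1 was highest, at 237, in normoxic dim replicate 1, with 6531 of skeletal muscle markers, and next, at 206, in hypoxic dim replicate 1, with 468. Without the muscle pair COL21A1 was at -3.19 in hypoxia and -3.80 in normoxia (adjusted p = 8.65e-05 and 0.000331), without the airway pair at -3.34 and -3.39 (0.000640 and 0.000745), and without the granule pair at -2.99 and -3.74 (0.000700 and 0.000248). COL6A5 was at 1.79 in hypoxia and 1.85 in normoxia without the muscle pair (adjusted p = 7.74e-05 and 0.000755), at 1.92 and 1.56 without the airway pair (0.000790 and 0.00326), and at 1.66 and 1.52 without the granule pair (0.000494 and 0.00122).

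**Figure D4:**
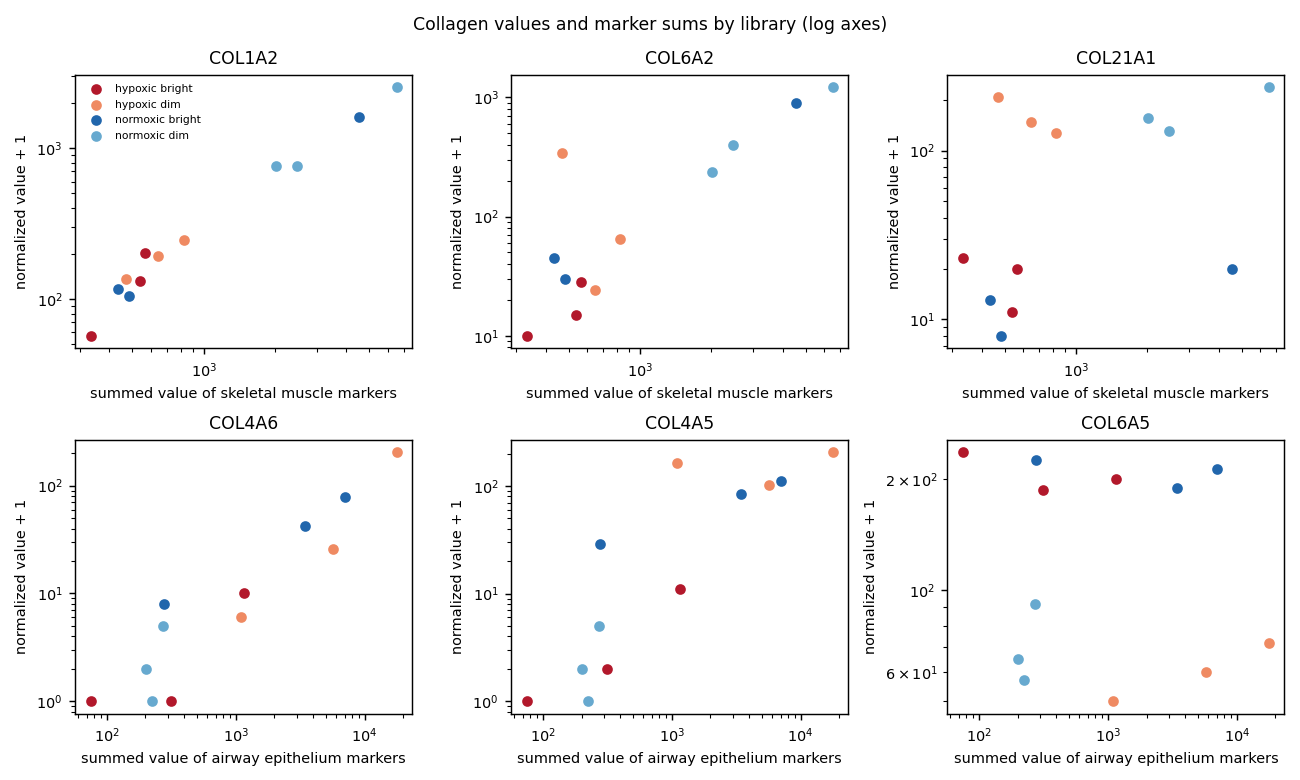
Normalized value plus 1 (vertical log axis) of COL1A2, COL6A2 and COL21A1 against the summed value of 12 skeletal muscle markers, and of COL4A6, COL4A5 and COL6A5 against that of 12 airway epithelium markers (horizontal log axes), 1 point per library, coloured by group. COL1A2 is at its 2 highest values, 2538 and 1596, where muscle markers are at 6531 and 4537, while COL21A1 and COL6A5 separate by subset at low and at high marker sums.

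The other tested fibril-associated chains were COL12A1, at 18 to 138, COL16A1, at 5 to 33, and COL9A2. COL9A2, a cartilage chain of type IX collagen, was at 8, 10 and 9 in hypoxic bright, 120, 12 and 11 in hypoxic dim, 0, 8 and 67 in normoxic bright and 10, 3 and 4 in normoxic dim libraries. Its 2 high libraries, hypoxic dim replicate 1 and normoxic bright replicate 3, were those highest in neutrophil granule markers, at 15138 and 1754, and the part of such cells was not tested. Of 8 listed chondrocyte markers 6 were found among the genes. They summed to at most 78, in hypoxic dim replicate 1, where SOX9 was at 58, and to 19 in normoxic bright replicate 3. None of the 3 genes passed in any comparison. COL12A1 did so as lower in bright cells in hypoxia without hypoxic dim replicate 3 (-2.11, adjusted p = 0.0207) or normoxic dim replicate 3 (-1.55, adjusted p = 0.0366).

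COL23A1, the transmembrane collagen whose outer part can be shed, was another steady and abundant chain. It stood at 1153, 1311 and 1274 in hypoxic bright, 1297, 1320 and 1011 in hypoxic dim, 1390, 1479 and 1141 in normoxic bright and 1277, 1271 and 1260 in normoxic dim libraries. Bright against dim cells differed by 0.05 (95% interval -0.20 to 0.30) in hypoxia and 0.07 (-0.18 to 0.32) in normoxia, and hypoxia against normoxia by -0.09 (-0.34 to 0.15) in bright and -0.08 (-0.33 to 0.17) in dim cells. COL18A1, a multiplexin and the precursor of endostatin, was at 713, 792 and 808 in hypoxic bright, 713, 980 and 798 in hypoxic dim, 650, 745 and 495 in normoxic bright and 686, 676 and 752 in normoxic dim libraries, and passed in no comparison. COL15A1, the other multiplexin, was at 59, 53 and 44 in hypoxic bright and 23, 44 and 32 in hypoxic dim libraries, with an estimate of 0.68 ± 0.29 that did not pass (adjusted p = 0.102). COL28A1 ranged from 15 to 35 and passed in no comparison.

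No collagen chain gene was high in a single library by the measure used, a highest value of at least 50 and at least 4 times the second highest after 10 was added to both. The nearest were COL4A4 at 2.75 times, COL27A1 at 2.54 and COL4A6 at 2.42. Of the 30 tested genes, 15 had their highest value in normoxic dim replicate 1 and 8 in hypoxic dim replicate 2. The share of all tested genes highest in these libraries was not counted, so this is not read as a result about collagen genes. Normoxic dim replicate 1 was also the deepest library, at an estimated 39500000 counted reads. Within a group, replicates lay more than 4-fold apart (on values plus 10) for 13 of the 30 genes, against 5.25% of all tested genes. The median standard deviation within groups was 1.02 on the log2 scale for collagen genes and 0.166 for all tested genes.

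**Figure D5:**
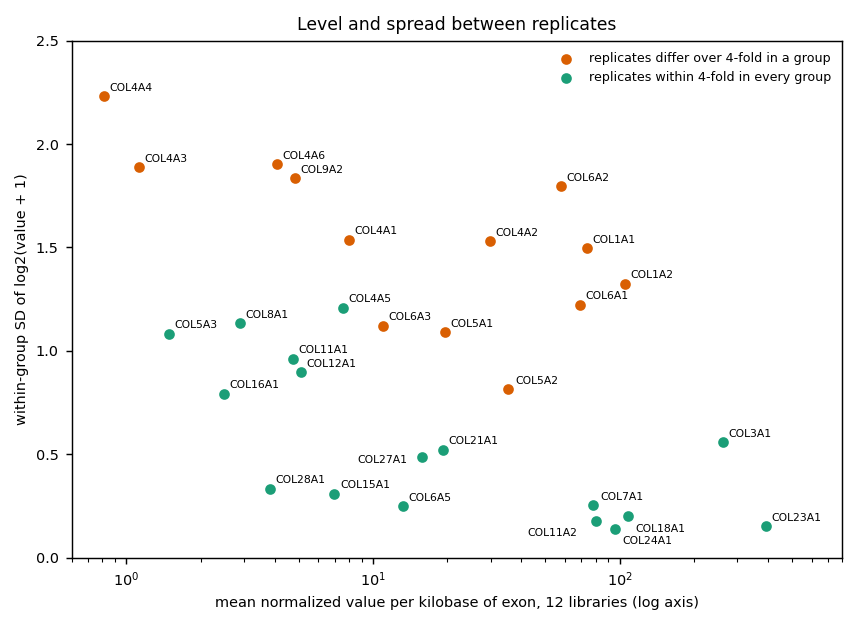
Standard deviation within groups of log2(value + 1) (vertical axis) against the mean normalized value per kilobase of exon over 12 libraries (horizontal log axis) for the 30 tested collagen chain genes. The 13 genes in orange had replicates more than 4-fold apart in some group, and COL23A1, COL18A1, COL24A1, COL11A2 and COL7A1 combine a high level with a low spread.

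Skeletal muscle markers moved with the variable fibrillar and type VI chains. They summed to 333, 565 and 539 in hypoxic bright, 468, 822 and 644 in hypoxic dim, 4537, 485 and 433 in normoxic bright and 6531, 2018 and 2473 in normoxic dim libraries. All 12 of these markers reached 10 in normoxic bright and in normoxic dim libraries, 9 in hypoxic dim and 7 in hypoxic bright libraries. Desmin (DES), the muscle intermediate filament, alone reached 2512 in normoxic dim replicate 1, and decorin (DCN), a fibroblast proteoglycan, 520. Without both libraries highest in these markers, 5 collagen genes passed for the subset in normoxia, COL1A2 (-2.78, adjusted p = 0.00430) and COL6A1 (-1.87, adjusted p = 0.0281) being added as lower in bright cells. In hypoxia 10 passed, with COL3A1 added as higher and COL4A1, COL6A1 (-1.56, adjusted p = 0.00640) and COL6A2 (-2.33, adjusted p = 0.0368) as lower in bright cells. Both libraries left out are normoxic, so these hypoxic estimates are those of the main fit, and only the spread shared by the groups changed. For oxygen in dim cells, COL1A2 was added as lower in hypoxia (-2.02, adjusted p = 0.0390). The share of all tested genes that passed without these libraries was not counted. The part of muscle cells or fibroblasts in these values was not tested. In hypoxic dim replicate 1, muscle markers were at 468 and COL1A2 at 135 while COL1A1 was at 869 and COL6A2 at 341.

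Collagen chains are made in the endoplasmic reticulum, where prolines and lysines are hydroxylated and the helix is folded, and they are trimmed and crosslinked outside the cell. Of 64 genes for these steps, for collagen breakdown and for collagen receptors, 57 were tested. For bright against dim cells in hypoxia 8 were higher (12.9% of all tested genes) and 9 lower (13.6%), and 28 had an unadjusted p under 0.05 in limma (39.5% of all tested genes). In normoxia 1 was higher (2.88%) and 0 lower (3.79%), and 8 had an unadjusted p under 0.05 (18.8%). For hypoxia against normoxia in bright cells 1 was higher (0.478%) and 0 lower (0.359%), and 17 had an unadjusted p under 0.05 (15.5%). In dim cells 0 passed (0.232%), and 15 had an unadjusted p under 0.05 (17.4%). For the difference of the oxygen effects 1 was positive (1.1%) and 1 negative (1.26%), and 14 had an unadjusted p under 0.05 (22%). The median log2 fold change in hypoxia between bright and dim cells was 0.02 for the 15 hydroxylation and glycosylation genes, 0.04 for the 12 folding and export genes, -1.07 for the 12 tested genes of propeptide removal and crosslinking, -1.16 for the 8 tested genes of breakdown and -0.16 for the 10 tested receptors, against -0.03 for all tested genes.

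LOXL3, a lysyl oxidase that crosslinks collagen, was at 1218, 1341 and 1399 in hypoxic bright, against 723, 782 and 810 in hypoxic dim libraries, and at 1300, 1108 and 1188 in normoxic bright, against 816, 742 and 767 in normoxic dim libraries. It was higher in bright cells in hypoxia (0.77 ± 0.09, adjusted p = 0.000105) and in normoxia (0.63 ± 0.09, adjusted p = 0.000710). P4HA1, a catalytic subunit of prolyl 4-hydroxylase, was at 3865, 2803 and 1945 in hypoxic bright, against 1231, 1291 and 1403 in hypoxic dim libraries, and at 1255, 1188 and 1216 in normoxic bright, against 1389, 1154 and 1174 in normoxic dim libraries. The hypoxic bright libraries were above all others. In the same list, P4HA2 went the other way, at 3, 23 and 13 in hypoxic bright and 106, 200 and 70 in hypoxic dim libraries. P4HA2 was at 382, 73 and 27 in normoxic bright and 461, 49 and 165 in normoxic dim libraries. P4HA3 was at 0, 6 and 0 in hypoxic bright and 4, 49 and 30 in hypoxic dim libraries. P4HA1 was 2.26-fold higher in hypoxia in bright cells (1.18 ± 0.18, adjusted p = 0.0108), its estimate in dim cells was 0.08 ± 0.18 (adjusted p = 0.853), and the difference of both effects passed (1.10 ± 0.25, adjusted p = 0.0410). That difference, but not the effect in bright cells, was lost without any of 8 libraries taken singly, all but normoxic bright replicate 1, hypoxic dim replicates 1 and 3 and hypoxic bright replicate 3 (0.86 to 1.15, adjusted p = 0.0538 to 0.102). PLOD2, a lysyl hydroxylase, at 1193 to 2223, and SERPINH1, the collagen chaperone HSP47, passed in no comparison.

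In hypoxia, bright cells were also higher than dim cells in TXNDC5, an endoplasmic reticulum disulfide isomerase (0.97 ± 0.20, adjusted p = 0.00373), and in the collagen-binding integrin subunit ITGB1 (0.45 ± 0.11, adjusted p = 0.00842). They were lower in PPIB, a prolyl isomerase of the collagen folding machinery (-0.40 ± 0.08, adjusted p = 0.00318), in PCOLCE, an enhancer of propeptide removal (-2.81 ± 0.74, adjusted p = 0.0146, and 0.0561 without hypoxic bright replicate 1), and in MMP9, a gelatinase (-1.10 ± 0.29, adjusted p = 0.0134). CREB3L1, a transcription factor of collagen secretion, was at 1, 5 and 3 in hypoxic bright, against 47, 32 and 8 in hypoxic dim libraries (-2.74 ± 0.95, adjusted p = 0.0477), a call lost without any of 9 libraries taken singly, all but normoxic bright replicates 1 and 3 and hypoxic dim replicate 3 (adjusted p = 0.0514 to 0.157). DDR1, a collagen receptor tyrosine kinase, was at 0, 11 and 2 in hypoxic bright, against 26, 220 and 48 in hypoxic dim libraries (-4.33 ± 1.05, adjusted p = 0.00961). DDR1 was highest in hypoxic dim replicate 2, as were COL4A5, COL4A6 and the airway markers, and without the 2 libraries highest in those markers it no longer passed (-3.46, adjusted p = 0.0591).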

How the data were processed

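From 12 mRNA libraries of KG1a cells, 3 per group, 1 table of 28395 genes was analysed, 330 of them without a symbol. The submitters' processing notes name Trimmomatic 0.39 for trimming, STAR 2.4.2a for alignment and hg38 as the genome. How reads were counted, with which annotation and strand setting, is not given in these sources. Each deposited value is a score: the authors divided read counts by a size factor per library and rounded the result, as read from the spacing of the values. Because of the rounding no count model was run.

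The response fitted was log2(value + 1), a pseudocount of 1, using limma 3.58.1 under R 4.3.3 (group means over 12 libraries, empirical Bayes with a mean trend, 8 residual degrees of freedom). Genes at 10 or more in at least 3 libraries were tested (15057, with 13338 left out), and passing means an adjusted p (Benjamini-Hochberg, per comparison) under 0.05. Errors are standard errors of limma and intervals are 95%. All 4 groups share the estimate of spread of a gene. Leaving out a library of a group outside a comparison therefore changes the standard error and adjusted p, but not the estimate. The fit was tested on simulated data.

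All members were accounted for. Named were members that passed or had a mean of at least 100, silent and low members by name, and, of the 5 lists of collagen processing and receptor genes, the member with the smallest adjusted p per direction and comparison, with P4HA1, PLOD2 and SERPINH1 in any case. Other genes, such as DES, DCN and tested members below that mean, were named after their values were seen. The members, lists and tests were chosen with earlier results of these data known. Exon lengths and start sites came from the exon intervals of the deposited table, and promoter windows (found for 32 of 44 members) from RefSeq on GRCh38.p14. Alternatives were another rescaling, no trend, no filter, a mean of at least 50, pseudocounts of 0.1 and 10, only the groups compared, the replicate block, leaving out each library and a threshold of 0.01 on the adjusted p. Leaving out the pair of libraries highest in muscle, airway or granule markers was added after the data were seen.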

Additional observations from a re-analysis of the deposited data

Results flagged for a closer look

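The hypoxia effect differed between bright and dim cells for 4 of the genes named, by a test of the difference itself in limma over all genes tested (bright minus dim, log2 scale). They were 2 of the 30 collagen genes tested and, of the 57 processing, breakdown and receptor genes tested, 1 positive and 1 negative. The share over all tested genes was 2.36% (1.1% positive, 1.26% negative), so the count is not read as a result about these lists. COL4A5 had a difference of -10.67 ± 1.18 (adjusted p = 0.00123), with the hypoxic bright and normoxic dim libraries all at 10 or below. COL4A6, at 10 or more in only 4 libraries, all hypoxic dim or normoxic bright, had a difference of -7.67 ± 1.83 (adjusted p = 0.0470). P3H3, a prolyl 3-hydroxylase family member, was at 8, 6 and 2 in hypoxic bright and 74, 40 and 20 in hypoxic dim libraries, and at 55, 29 and 36 in normoxic bright and 33, 6 and 18 in normoxic dim libraries, and its difference was -4.07 ± 0.89 (adjusted p = 0.0363), which was lost on leaving out any of 8 libraries singly, all but normoxic dim replicate 1, normoxic bright replicate 1 and hypoxic dim replicates 1 and 3 (adjusted p = 0.0522 to 0.0958). P4HA1 had a difference of 1.10 ± 0.25 (adjusted p = 0.0410) and was highest in the hypoxic bright libraries. With 3 libraries in each group, single libraries were not screened for outlying values.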

How the results depend on the processing

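The subset calls of COL21A1, COL6A5 and COL4A5 held in all 24 alternative settings at both oxygen levels. No call of any named gene changed sign. Leaving out 1 library at a time gave 3 to 9 collagen genes for the subset in hypoxia (3 without hypoxic bright replicate 3), 3 to 8 in normoxia (8 without normoxic bright replicate 1, when COL1A1, COL1A2, COL4A1, COL6A1 and COL6A2 passed as lower in bright cells), 0 to 1 for oxygen in bright cells, 0 to 3 in dim cells and 1 to 3 for the difference. At an adjusted p under 0.01 the counts were 3 for the subset in hypoxia, 0 for oxygen in bright cells, 0 in dim cells and 1 for the difference. Without the trend they were 0 for oxygen in bright and in dim cells and 1 for the difference, with a pseudocount of 0.1 likewise 0, 0 and 1. Without the filter they were 0 for oxygen in bright cells and 1 for the difference. The difference also gave 1 with a mean of at least 50, which leaves COL4A6 untested, and 1 with a pseudocount of 10. Without both libraries highest in muscle markers the counts were 10 and 5 for the subset in hypoxia and normoxia, 0 for oxygen in bright and 3 in dim cells. Without those highest in airway markers they were 0 for oxygen in bright cells, 0 in dim cells and 0 for the difference, and without those highest in granule markers 5 for the subset in normoxia, 2 for oxygen in dim cells and 5 for the difference. At an unadjusted p under 0.05 the main limma counts were 7 genes for oxygen in bright cells (15.5% of all tested genes), 10 in dim cells (17.4%) and 5 for the difference (22%). With the replicate block, oxygen in dim cells gave 2 genes, COL3A1 being added (-1.54, adjusted p = 0.0327), the subset in hypoxia gained COL3A1 (0.0170), COL12A1 (0.0331) and COL16A1 (0.0482), and that in normoxia COL4A6 (0.0486). With only the groups compared in the fit, the subset in hypoxia gained COL3A1 (0.00127), COL6A1 (0.0245) and COL16A1 (0.0425). The replicate numbers were not taken as pairs in the main fit, since the labels do not say what they mark. Of 18 pairs of libraries with the same number 7 correlated over 0.1 (range -0.23 to 0.45), and 7 of 12 libraries correlated best with their own number. These values do not exclude pairing. The cause of the changes between settings was not tested, and the share of all tested genes that passed in each setting was not counted.

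The calls of COL4A5 for oxygen were less stable, held in 14 of 24 settings in bright cells and 17 of 24 in dim cells, and in 22 of 23 for the difference. COL27A1 held in 21 of 24, COL4A2 in 17 of 24, and COL4A6 in 12 of 23 for the subset in hypoxia and 9 of 22 for the difference. COL4A3 and COL4A4 had values of 5 or less in most libraries and residual standard deviations of 1.89 and 2.23 on the log2 scale, so their estimates are wide.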
